A study of Mus musculus with 18 samples.

Results

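The genes described here supply the nucleotides for DNA synthesis. They were taken by symbol and comprised the subunits of ribonucleotide reductase (Rrm1, Rrm2 and Rrm2b), the enzymes of the thymidylate route (Tyms, Dut and Dctd), the salvage kinases Tk1 and Dck, and the deoxynucleotide hydrolase Samhd1. All 9 were found among the 51912 genes of the count table, and all 9 were among the 15710 genes with enough counts to be tested. The values came from RNA-seq of primary mouse embryonic fibroblasts (MEFs) at passage 1, grown in 15% serum at 5% oxygen from C57BL/6 embryos. MEFs were prepared from whole embryos without head and internal organs, so a culture holds several cell types, and in such bulk samples fewer cells of a type and less RNA per cell cannot be told apart. The 6 genotypes, with 3 libraries each, combined Trp53+/+, Trp53+/- or Trp53-/- with either Pole4+/+ or Pole4-/-. Both alleles were constitutive knockouts, lost in every cell of the embryo, and the labels name no treatment. Pole4 encodes an accessory subunit of DNA polymerase epsilon and Trp53 encodes the tumour suppressor TRP53. The comparisons ask how the expression of these genes changed when Trp53 was lost in cells with and without Pole4, and when Pole4 was lost.

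Ribonucleotide reductase makes deoxynucleotides from ribonucleotides and is the source of most building blocks for DNA. Its large subunit RRM1 pairs with the small subunit RRM2, which is made for S phase, or with the small subunit P53R2, encoded by Rrm2b, a known TRP53 target that serves DNA repair and mitochondrial DNA outside S phase. Thymidylate synthase (Tyms) methylates dUMP to dTMP, the dUTPase (Dut) turns dUTP into dUMP, and dCMP deaminase (Dctd) gives dUMP from dCMP. Thymidine kinase 1 (Tk1) and deoxycytidine kinase (Dck) recover deoxynucleosides, and SAMHD1 breaks deoxynucleotides down. Transcription of many S-phase genes is known to be driven by E2F factors and held down after TRP53 activation through the CDK inhibitor p21, encoded by Cdkn1a.

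Because 7 of the 9 genes moved together across the libraries, their promoter windows were read from RefSeq on GRCm38.p6, as the 250 bases before each annotated start. Windows were at hand for 8 genes, 10 windows in all, since Dctd had 3 and Rrm2b was not in the table. The windows of the reductase genes Rrm1 (chr7:102441445-102441694, + strand) and Rrm2 (chr12:24708004-24708253, + strand) are shown because they were the 2 with an E2F word, and capitals mark E2F words and CCAAT.
Rrm1: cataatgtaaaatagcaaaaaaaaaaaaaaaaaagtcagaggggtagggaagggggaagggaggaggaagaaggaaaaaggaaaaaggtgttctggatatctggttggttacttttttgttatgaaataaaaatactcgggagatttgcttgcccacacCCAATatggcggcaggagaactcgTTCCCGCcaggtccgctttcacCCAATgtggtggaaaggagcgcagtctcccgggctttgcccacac
Rrm2: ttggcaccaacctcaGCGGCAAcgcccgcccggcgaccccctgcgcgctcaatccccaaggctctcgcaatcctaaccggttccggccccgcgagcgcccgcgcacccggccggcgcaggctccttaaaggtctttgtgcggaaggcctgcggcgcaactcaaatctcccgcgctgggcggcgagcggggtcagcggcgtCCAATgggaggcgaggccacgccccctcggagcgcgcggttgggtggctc
The E2F words searched on both strands were the word TTCCCGC, its relative TTCGCGC, the related word TTGGCGC and the related word TTGCCGC, of which at least 1 lay in 7.89% of 32851 RefSeq windows of the same length. In Rrm1 the word TTCCCGC began 67 bases before the start on the sense strand, and CCAAT began 91 and 45 bases before it. In Rrm2 the word TTGCCGC lay on the antisense strand 235 bases before the start, with CCAAT 50 bases before it. CCAAT lay in 33.8% of all windows and in those of 3 of the 8 genes, Rrm1, Rrm2 and Dctd. The word TTTGAA, the core of the cell cycle homology region, lay in 16% of all windows and only in that of Dck among the 8 genes, 245 bases before the start. The windows of Tk1, Tyms, Dut and Samhd1 held none of these words, which says only that these letters are not in these windows. The Dut window (chr2:125247265-125247514, + strand) lay after the gene start of the GRCm38 annotation (125247190). The bases before that start were therefore not read for Dut. Those of Tk1 and Samhd1 were read only in part, since their windows also reached past their gene starts in that annotation.

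Library totals ran from 9535971 to 35319918 counts, and ribosomal RNA genes took 0.968% to 42.5% of them. Trp53 stood at 64.2 to 96.1 CPM (counts scaled to a common library size, with TMM factors) in Trp53+/+ libraries, 48.4 to 59.6 in Trp53+/- and 8.65 to 12.1 in Trp53-/-, and Cdkn1a fell from 232 to 363 CPM in Trp53+/+ to 5.17 to 12 CPM in Trp53-/- libraries. Pole4 counts remained at 9.26 to 12 CPM in Pole4-/- libraries against 14.2 to 26.4 in Pole4+/+ libraries. By Xist and Y-linked genes 7 libraries were male, and sex was not balanced: all 3 libraries of Pole4+/+ Trp53+/+ and of Pole4+/+ Trp53-/- were female, all 3 of Pole4+/+ Trp53+/- were male, and 2 of 3 Pole4-/- Trp53+/+ libraries were male. The library Pole4+/+ Trp53-/- replicate 1 stood apart from the other 2 of its genotype. It had the lowest Pole4 level of the Pole4+/+ libraries, 7.20 CPM of Y-linked counts beside a female level of Xist, where the other female libraries had at most 0.302 CPM, and S-phase genes near the wild-type level. Whether it held RNA of more than 1 embryo was not tested, and its part in the results was measured by leaving it out. Fibroblast markers summed to 14200 to 32500 CPM in every library, while the erythroid markers summed to at most 0.878 CPM. With Trp53 loss in Pole4-/- MEFs 5 of 11 fibroblast markers were called lower and 1 higher (sums of 25350 to 32500 CPM against 14200 to 16970). Of 5 epithelial markers 3 were tested and 2 were higher (10.5 to 16.7 against 22.0 to 42.0 CPM), and of 6 skeletal muscle markers 5 were tested and 2 were lower (140 to 149 against 52.9 to 67.5 CPM). Of 5 neuronal markers 3 were tested and 1 was higher, and of 6 endothelial markers 3 were tested and none was called. In Pole4+/+ MEFs 1 fibroblast marker was higher and 2 muscle markers were lower. Over all genes 21.8% were higher and 20.8% lower in the first comparison and 2.23% and 2.37% in the second. The part of these markers in the levels of the supply genes was not tested.

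The 7 genes Rrm1, Rrm2, Tk1, Tyms, Dut, Dck and Dctd were each highest on average in Pole4-/- Trp53-/- MEFs and lowest in Pole4-/- Trp53+/+ MEFs. The libraries of Pole4-/- Trp53+/+ lay below every library of the next genotype up for each of these 7 genes, whereas all other neighbours in the order overlapped. For all but Dctd the next genotype up was Pole4-/- Trp53+/-. Libraries of these 2 genotypes did not overlap for 40.3% of all genes, in either direction. The widest range was that of Tk1, whose highest library was 4.92 times its lowest, followed by Rrm2 with 4.49 times and Rrm1 with 3.89 times. Samhd1 and Rrm2b had the narrowest ranges, 1.89 and 2.12 times. Rrm2b had its highest mean in Pole4-/- Trp53+/+ MEFs, where the 7 genes were lowest, and its lowest mean in Pole4+/+ Trp53-/- MEFs, and Samhd1 was highest in Pole4-/- Trp53-/- MEFs, where every library lay above those of the next genotype, while its other 5 genotypes overlapped with their neighbours.

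**Figure D1:**
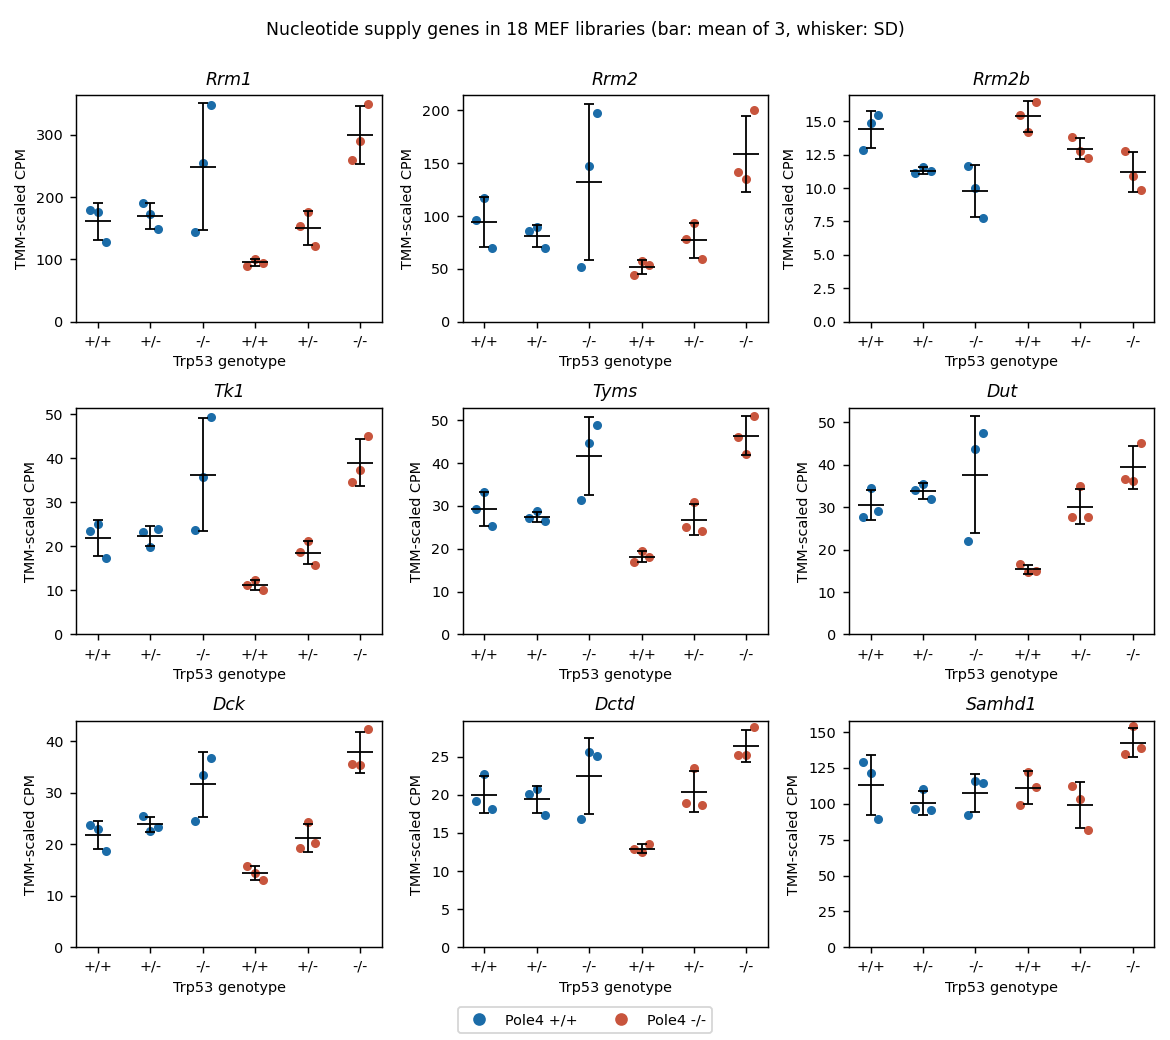
Level of each gene in TMM-scaled CPM (vertical axis, from 0) in the 3 libraries of each genotype (points), with the mean (bar) and SD (whiskers). Blue is Pole4+/+, red is Pole4-/-, and the Trp53 genotype is on the horizontal axis. In the red points 7 genes step up from Trp53+/+ to Trp53-/-, while the first blue Trp53-/- point of Rrm1, Rrm2 and Dut sits well below the other 2.

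Loss of Trp53 in Pole4-/- MEFs went with higher levels of Rrm1, Rrm2, Tk1, Tyms, Dut, Dck and Dctd and a lower level of Rrm2b. These 7 genes are called the S-phase supply genes here. The name is only a label, since cell cycle phase was not measured by these libraries. Between the Trp53-/- and Trp53+/+ cells of this background 7 of the 9 genes rose by 2.04-fold to 3.49-fold, Rrm2b fell, and Samhd1 did not pass the test. This count of 8 called genes stands beside 42.6% of all 15710 genes called in the same comparison, 21.8% higher and 20.8% lower, so many genes moved with Trp53 in this background. The median log2 fold change of the 9 genes was 1.35, against -0.02 over all genes tested. The libraries of the 2 genotypes did not overlap for any of the 9 genes, as was the case for 57% of all genes, 28.5% higher and 28.5% lower. The 7 rises were called in each of the 11 alternative analyses and with each of the 6 libraries left out. The p-values measure only the spread between these libraries, and with 3 against 3 an exact permutation test could not go below 0.1.

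In Pole4+/+ MEFs the same loss of Trp53 gave 2 called genes, Dck higher and Rrm2b lower. This is set against 4.6% of all genes called in either direction, 2.23% higher and 2.37% lower. The median over the 9 genes was 0.48, against 0.03 over all genes. The other 6 S-phase supply genes had log2 fold changes of 0.16 to 0.71 and did not pass the test. The count depended on single libraries. Without Pole4+/+ Trp53-/- replicate 1 it was 7, since Rrm1 (0.87), Rrm2 (0.84), Tk1 (0.92), Tyms (0.65) and Dut (0.55) then passed, in a fit that called 2700 of all 15953 genes tested in place of 723. Without replicate 2 or 3 of that genotype, or without replicate 2 or 3 of Pole4+/+ Trp53+/+, it was 0, and without replicate 1 of Pole4+/+ Trp53+/+ it was 1, where 325 to 649 of all genes were called.

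**Figure D2:**
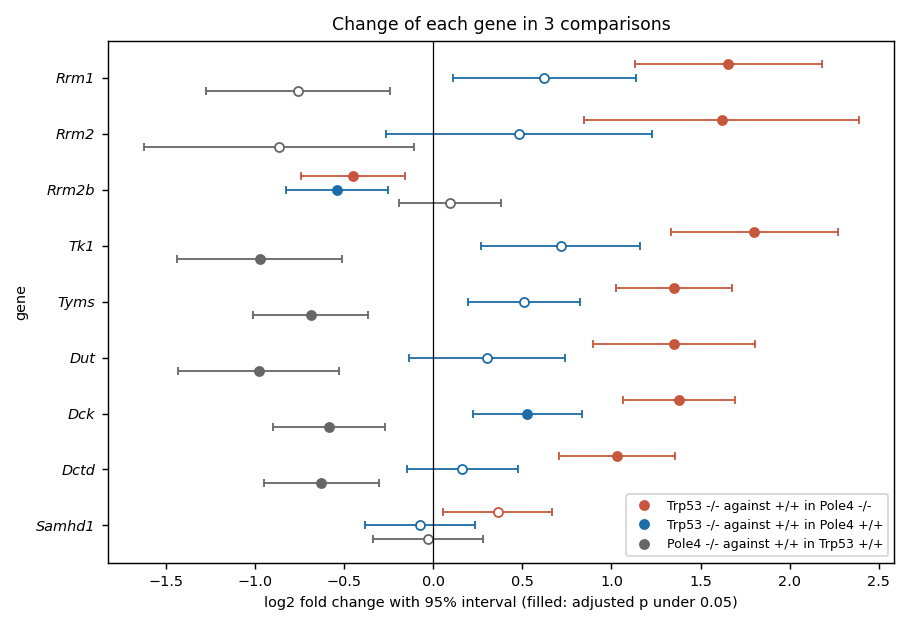
Log2 fold change of each gene (horizontal axis) with its 95% interval in 3 comparisons, by colour. Filled points passed an adjusted p of 0.05. The red points, for Trp53 loss in Pole4-/- MEFs, lie at 1.03 to 1.80 for 7 genes, the blue points for Trp53 loss in Pole4+/+ MEFs lie nearer 0 for those 7 and farther from 0 for Rrm2b, and the grey points for Pole4 loss lie below 0 for those 7 genes.

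The reductase genes differed in direction. Rrm1, the large subunit, stood at 90.0, 101 and 94.5 CPM in Pole4-/- Trp53+/+, 153, 177 and 121 in Pole4-/- Trp53+/- and 260, 290 and 350.0 in Pole4-/- Trp53-/- libraries (replicates 1 to 3). Each step was free of overlap. The rise from Trp53+/+ to Trp53-/- was 3.15-fold (log2 1.66 ± 0.25, SE; adjusted p = 0.000133, edgeR's quasi-likelihood test), and that from Trp53+/- to Trp53-/- was 1.99-fold (adjusted p = 0.0156). In Pole4+/+ MEFs Rrm1 stood at 180, 176 and 127 CPM with Trp53+/+, 190.0, 173 and 148 with Trp53+/-, and 144, 254 and 347 with Trp53-/-. The Trp53-/- libraries spread from within the range of the other 2 genotypes to well above it, and the change of 1.54-fold did not pass the test (adjusted p = 0.161).

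Rrm2, the S-phase small subunit, stood at 44.6, 57.7 and 53.4 CPM in Pole4-/- Trp53+/+, 78.0, 93.0 and 59.7 in Pole4-/- Trp53+/-, and 142, 135 and 200.3 in Pole4-/- Trp53-/- libraries. Again no step overlapped. It rose 3.07-fold between the outer genotypes (log2 1.62 ± 0.36, SE; adjusted p = 0.0026), while the step from Trp53+/- to Trp53-/- gave 2.07-fold and an adjusted p of 0.0647. With Pole4 present it was at 96.6, 117 and 69.9 CPM with Trp53+/+, 85.4, 89.4 and 69.5 with Trp53+/-, and 51.7, 148 and 197 with Trp53-/-. Its Trp53-/- libraries held both the lowest and the highest values of the Pole4+/+ background, and the change of 1.40-fold had a 95% interval from -0.27 to 1.23 on the log2 scale (adjusted p = 0.519).

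Rrm2b, the TRP53 target, moved the other way and less. It stood at 15.5, 14.2 and 16.5 CPM in Pole4-/- Trp53+/+, 13.8, 12.8 and 12.2 in Pole4-/- Trp53+/-, and 12.8, 10.9 and 9.88 in Pole4-/- Trp53-/- libraries. With Pole4 present it was at 12.9, 14.9 and 15.5 with Trp53+/+, 11.1, 11.6 and 11.3 with Trp53+/-, and 11.6, 9.97 and 7.76 with Trp53-/-. In both backgrounds every Trp53-/- library lay below every Trp53+/+ library, as for 28.5% of all genes in Pole4-/- and 8.29% in Pole4+/+ MEFs, but the levels in Trp53-/- MEFs were well above 0. The fall was 1.37-fold in Pole4-/- MEFs (log2 -0.45 ± 0.14, SE; adjusted p = 0.0147) and 1.46-fold in Pole4+/+ MEFs (log2 -0.54 ± 0.13, SE; adjusted p = 0.0311), and these 2 changes differed by 0.09 with a 95% interval from -0.31 to 0.50. For scale, Cdkn1a fell 52.7-fold and 24-fold in the same comparisons. The call in Pole4-/- MEFs was lost without Pole4-/- Trp53-/- replicate 3 or Pole4-/- Trp53+/+ replicates 1 or 3 and held in 9 of the 11 alternative analyses. The call in Pole4+/+ MEFs was lost without Pole4+/+ Trp53-/- replicate 2 or 3 or Pole4+/+ Trp53+/+ replicate 2 or 3 and held in 8 of 11. Rrm2b also shares 734 exon bases with the antisense gene Gm49085, and reads of the 2 cannot be told apart without strand information.

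The 3 genes of the thymidylate route rose together in Pole4-/- MEFs. Tyms stood at 17.0, 19.5 and 18.1 CPM in Pole4-/- Trp53+/+, 25.2, 31.0 and 24.2 in Pole4-/- Trp53+/- and 46.0, 42.0 and 51.1 in Pole4-/- Trp53-/- libraries, with no overlap. It rose 2.55-fold (log2 1.35 ± 0.15, SE; adjusted p = 1.48e-05). With Pole4 present it was at 29.3, 33.2 and 25.2 with Trp53+/+, and at 31.5, 44.8 and 48.8 with Trp53-/-, where replicate 1 lay within the wild-type range, and the 1.42-fold change missed the threshold (adjusted p = 0.0632). A Tyms pseudogene, Tyms-ps, had a mean of at most 0.0269 CPM in the 6 genotypes. Dut stood at 16.6, 14.7 and 14.9 CPM in Pole4-/- Trp53+/+, 27.8, 34.9 and 27.8 in Pole4-/- Trp53+/- and 36.8, 36.2 and 45.2 in Pole4-/- Trp53-/- libraries. Most of the distance for Dut therefore lay between Trp53+/+ and Trp53+/- in this background: that step was 1.95-fold (adjusted p = 0.0256), and the step from Trp53+/- to Trp53-/- was 1.31-fold (adjusted p = 0.23). Between the outer genotypes Dut rose 2.55-fold (log2 1.35 ± 0.21, SE; adjusted p = 0.000194). With Pole4 present Dut was at 27.8, 34.5 and 29.2 CPM with Trp53+/+ and at 21.9, 43.7 and 47.5 with Trp53-/-, so that replicate 1 was below and the others above all wild-type libraries (1.23-fold, adjusted p = 0.483). Dctd had the smallest rise of the 7 genes, 2.04-fold (log2 1.03 ± 0.15, SE; adjusted p = 0.000114), from 12.9, 12.4 and 13.5 CPM to 25.2, 25.2 and 28.8 CPM, through 19.0, 23.6 and 18.7 CPM in Pole4-/- Trp53+/- libraries. In Pole4+/+ MEFs it changed by 1.12-fold (adjusted p = 0.626), from 19.2, 22.8 and 18.1 CPM to 16.8, 25.6 and 25.1 CPM.

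Both salvage kinases rose. Tk1, the cytosolic thymidine kinase of S-phase cells, had the largest rise of the 9 genes, from 11.1, 12.3 and 10.0 CPM in Pole4-/- Trp53+/+ through 18.6, 21.2 and 15.9 CPM in Pole4-/- Trp53+/- to 34.7, 37.3 and 45.1 CPM in Pole4-/- Trp53-/- libraries (3.49-fold; log2 1.80 ± 0.22, SE; adjusted p = 2.57e-05). None of these genotypes overlapped. With Pole4 present it was at 23.6, 25 and 17.3 CPM with Trp53+/+ and at 23.8, 35.7 and 49.4 CPM with Trp53-/-, with overlap through replicate 1 and an adjusted p of 0.0651. Tk1 shares 83 exon bases with Afmid on the opposite strand, a gene with a mean of 50.9 counts per library. Dck rose 2.60-fold in Pole4-/- MEFs (log2 1.38 ± 0.15, SE; adjusted p = 1.08e-05), from 15.8, 14.5 and 13.1 CPM to 35.7, 35.4 and 42.5 CPM, with 19.2, 24.3 and 20.3 CPM in Pole4-/- Trp53+/- libraries. It was the one rise called in Pole4+/+ MEFs as well, at 1.44-fold (log2 0.53 ± 0.14, SE; adjusted p = 0.0474), from 23.8, 23.0 and 18.8 CPM to 24.6, 33.6 and 36.8 CPM. There the genotypes did not overlap, which held for 8.24% of all genes in the higher direction, but the gap was narrow, and the call held without Pole4+/+ Trp53-/- replicate 1 and was lost when any other of the 6 libraries was left out. It held in 6 of the 11 alternative analyses, with a log2 fold change of 0.51 to 0.61, and was lost in the others.

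Samhd1 stayed within a narrow band. It stood at 99.4, 122 and 112 CPM in Pole4-/- Trp53+/+, 113, 103 and 81.5 in Pole4-/- Trp53+/- and 135, 154 and 139 in Pole4-/- Trp53-/- libraries. The last genotype lay above both others. Against Trp53+/+ the difference was 1.28-fold and did not pass the test (log2 0.36 ± 0.15, SE; adjusted p = 0.0562), whereas against Trp53+/- it was 1.44-fold and did (log2 0.52 ± 0.14, SE; adjusted p = 0.0278). The first was called in 6 of the 11 alternative analyses and in none of the 6 fits that left a library out. The second was called in 9 of the 11, not with library totals alone (adjusted p = 0.464) or the ribosomal RNA covariate (adjusted p = 0.234), and was lost without Pole4-/- Trp53+/- replicate 3 or Pole4-/- Trp53-/- replicate 2 or 3. In Pole4+/+ MEFs Samhd1 was at 129, 122 and 89.3 CPM with Trp53+/+, 96.0, 110 and 95.9 with Trp53+/-, and 92.1, 116 and 115 with Trp53-/-, and its change with Trp53 loss was -0.08 with a 95% interval from -0.38 to 0.23. Samhd1 is also known as a gene of macrophages and of the interferon response. None of the 11 tested macrophage markers was called in either comparison with Trp53-/- MEFs, and the list of 13 summed to 7.64 to 40.9 CPM in Pole4-/- Trp53-/- and 11.0 to 29.5 CPM in Pole4-/- Trp53+/+ libraries. The 20 interferon-stimulated genes, Mx1 among them at 3 counts or fewer in every library, summed to 69.6 to 86.8 and 102 to 114 CPM in these genotypes. The part of either list in the Samhd1 level was not tested.

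In Pole4-/- MEFs that had kept 1 Trp53 allele the means of 8 of the 9 genes lay between those of the other Pole4-/- genotypes, whereas Samhd1 had its lowest mean of all 6 genotypes there (99.1 CPM). The share of all genes with such an intermediate mean was not counted. Compared with Pole4-/- Trp53+/+ cells, 4 of the 9 genes rose in Pole4-/- Trp53+/- cells, beside 5.12% of all genes called (2.96% higher). Libraries did not overlap for 8 of the 9 genes, beside 40.3% of all genes. Of all calls in this comparison 57.8% were higher, or 97.0% when libraries were scaled by their totals alone, which moved the median of all genes to 0.29. The 4 genes were Dut, Dctd (1.58-fold, adjusted p = 0.0294), Tyms (1.47-fold, adjusted p = 0.0461) and Dck (1.46-fold, adjusted p = 0.0463). Rrm1 and Tk1 had changes of a like size, 1.58-fold and 1.66-fold, and missed the threshold at adjusted p-values of 0.109 and 0.0616. When Pole4 was present, loss of 1 Trp53 allele gave no call among the 9 genes, 1 of them had an unadjusted p under 0.05 (1610 of all genes), and the log2 fold changes ran from -0.35 for Rrm2b to 0.15 for Dut, beside 0.904% of all genes called, and DESeq2 and limma voom also called 0. In Pole4+/+ MEFs all 3 Trp53+/- libraries were male and all 3 Trp53+/+ libraries female, so genotype and sex cannot be told apart there. Whether the Trp53+/- effect differed between the Pole4 backgrounds was not tested. The count of 4 became 0 without Pole4-/- Trp53+/- replicate 2 or any 1 of the 3 Pole4-/- Trp53+/+ libraries, where 17 to 241 of all genes were called in place of 805, and 0 with Xist as a covariate, where 137 were. The sizes changed less: with 1 library left out the log2 fold change ran from 0.85 to 1.06 for Dut and from 0.55 to 0.72 for Dctd, and with Xist they were 0.92 and 0.64.

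From Trp53+/- to Trp53-/- in Pole4-/- MEFs 5 genes rose, Rrm1, Tk1 (2.10-fold, adjusted p = 0.00474), Tyms (1.73-fold, adjusted p = 0.00348), Dck (1.78-fold, adjusted p = 0.00226) and Samhd1, beside 12.5% of all genes called (6.58% higher). Libraries did not overlap for 8 of the 9, beside 37.8% of all genes. Of all calls 52.7% were higher, or 6.9% with library totals alone, under which none of the 9 genes was called and the median of all genes moved to -0.33. The count was 3 without Pole4-/- Trp53+/- replicate 3 and 3 without Pole4-/- Trp53-/- replicate 3, with 781 and 654 of all genes called in place of 1963. Ribosomal RNA genes took 3.75% to 15.5% of the counts in Pole4-/- Trp53+/- and 24.7% to 30.0% in Pole4-/- Trp53-/- libraries, with no overlap, and with this share as a covariate 3 of the 9 and 540 of all genes were called. In Pole4+/+ MEFs the same step gave 0 calls, with 4 unadjusted p-values under 0.05 (1462 of all 15710 genes) and log2 fold changes of -0.20 to 0.69, beside 0.579% of all genes called. DESeq2 called 1 and limma voom 5, and without Pole4+/+ Trp53-/- replicate 1 there were 5, beside 208, 1193 and 1501 of all genes. All Trp53+/- libraries of this background were male and all Trp53-/- libraries female, so genotype and sex cannot be told apart.

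Loss of Pole4 in Trp53+/+ MEFs went with lower levels of the same S-phase supply genes. With both Trp53 alleles present, 5 of the 9 genes fell on loss of Pole4, beside 3.98% of all genes called (2.7% lower). Of all calls 32.3% were higher, or 2.5% with library totals alone, which moved the median of all genes to -0.28. Dut fell 1.97-fold (log2 -0.98 ± 0.21, SE; adjusted p = 0.0255), from 27.8, 34.5 and 29.2 CPM to 16.6, 14.7 and 14.9 CPM. Tk1 also fell 1.97-fold (adjusted p = 0.0282), Tyms 1.61-fold (adjusted p = 0.0272), Dctd 1.55-fold (adjusted p = 0.0355) and Dck 1.5-fold (adjusted p = 0.0397). Rrm1 (1.69-fold lower, adjusted p = 0.0802) and Rrm2 (1.82-fold lower, adjusted p = 0.144) did not pass the test. For all 7 genes every Pole4-/- library lay below every Pole4+/+ library, which held for 21.7% of all genes in that direction. Rrm2b (log2 0.09, 95% interval -0.19 to 0.38) and Samhd1 (-0.03, -0.34 to 0.28) did not pass the test. These 3 Pole4-/- Trp53+/+ libraries are also the reference of the Trp53 comparison in Pole4-/- MEFs, so the 2 comparisons share them.

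The calls for Pole4 loss depended on the libraries kept, and the sizes of the changes did so less. The count of 5 became 0 when any 1 of the 3 Pole4-/- Trp53+/+ libraries, or replicate 1 or 2 of Pole4+/+ Trp53+/+, was left out, where 8 to 140 of all genes were called in place of 626. With 1 library left out the log2 fold change ran from -1.08 to -0.89 for Dut, from -1.12 to -0.88 for Tk1 and from -0.785 to -0.593 for Tyms. The count was also 0 with Xist as a covariate, where 3 of all genes were called and the log2 fold changes of these 3 genes were -0.89, -0.99 and -0.67. In Trp53+/- MEFs loss of Pole4 gave 0 calls among the 9 genes, 0 unadjusted p-values under 0.05 (866 of all genes) and log2 fold changes of -0.27 to 0.20, beside 0.00637% of all genes called. In Trp53-/- MEFs it gave 0 calls, 1 unadjusted p under 0.05 (Samhd1, beside 1636 of all genes) and log2 fold changes of 0.07 to 0.41, also beside 0.00637%. DESeq2 and limma voom called 0 in both.

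An interaction term asked whether complete Trp53 loss acted unequally in the presence and absence of Pole4. It was positive for all 9 genes, with a median of 0.87 on the log2 scale against -0.02 over all genes, and none was called, beside 0.331% of all genes. Of the 9 genes, 8 had an unadjusted p under 0.05, as did 4453 of all 15710 genes. The lowest adjusted p, 0.0524, was that of Dck (0.85 ± 0.21, SE) and of Dctd (0.87 ± 0.21), and Rrm2b had the smallest difference. DESeq2 and limma voom each called 6 of the 9, beside 1791 and 1234 of all genes in place of 52. The count was 1 without Pole4+/+ Trp53-/- replicate 1, 5 without replicate 2, 7 without replicate 3 and 4 without Pole4+/+ Trp53+/+ replicate 3, beside 170, 1973, 3242 and 408 of all genes.

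The balance between the 2 small subunits of the reductase shifted with these changes. Per kilobase of exon, Rrm2 exceeded Rrm2b 9.51, 13.4 and 10.7 times in Pole4-/- Trp53+/+, 18.6, 23.9 and 16.1 times in Pole4-/- Trp53+/- and 36.6, 40.6 and 66.8 times in Pole4-/- Trp53-/- libraries. These 3 genotypes did not overlap. In Pole4+/+ MEFs the excess was 24.8, 25.9 and 14.9 times with Trp53+/+, 25.3, 25.4 and 20.3 times with Trp53+/- and 14.6, 48.8 and 83.8 times with Trp53-/-, so that the Trp53-/- libraries lay on both sides of the others. The excess depends on the length used: per kilobase of coding sequence it was 2.44, 3.44 and 2.75 times in Pole4-/- Trp53+/+ and 9.39, 10.4 and 17.2 times in Pole4-/- Trp53-/- libraries. Samhd1 relative to Rrm2 had a log2 ratio per kilobase of exon of -0.57, -0.64 and -0.66 in Pole4-/- Trp53+/+, of -1.20, -1.57 and -1.28 in Pole4-/- Trp53+/- and of -1.80, -1.53 and -2.25 in Pole4-/- Trp53-/- libraries. The last 2 genotypes overlapped and both lay below the first. Per kilobase of coding sequence the mean in Pole4-/- Trp53+/+ was 0.38, above 0, so which of Samhd1 and Rrm2 is the more abundant there cannot be read from these values. Ratios are given as a description with no test.

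**Figure D3:**
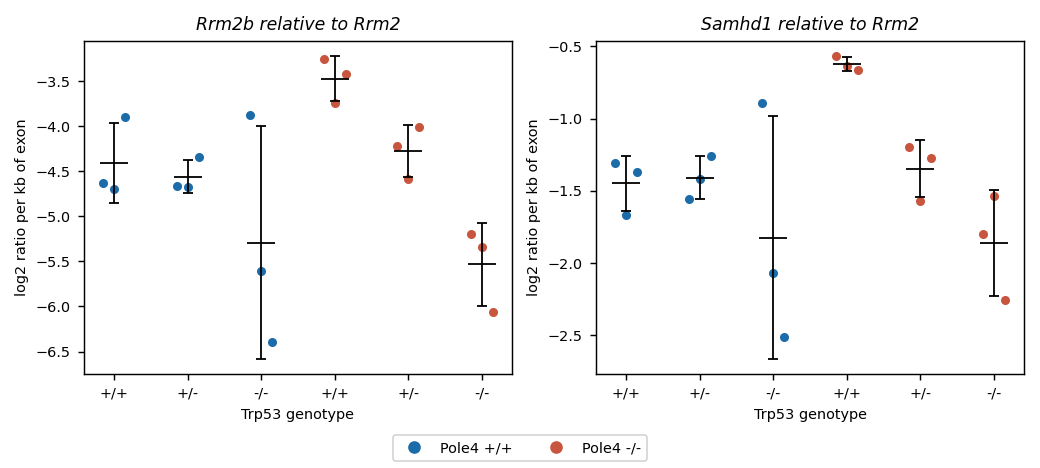
Log2 ratio of Rrm2b to Rrm2 (left) and of Samhd1 to Rrm2 (right), each per kilobase of exon, in each library (points) with mean and SD of 3 libraries, by Trp53 genotype and Pole4 background (colour). In Pole4-/- MEFs (red) the mean for Rrm2b drops from -3.47 with Trp53+/+ to -5.53 with Trp53-/-, and that for Samhd1 from -0.62 to -1.86.

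Across the 18 libraries the 7 S-phase supply genes rose and fell together. The 21 pairs among them had Pearson correlations of log2 CPM of 0.862 to 0.976, with a median of 0.922. Their correlation with the mean of 24 S-phase replication genes, among them the MCM helicase genes, Pcna and Cdc6, was 0.919 for Rrm2 and up to 0.98 for Dck. Rrm2b had correlations of -0.818 to -0.65 with the 7 genes, and Samhd1 of 0.263 to 0.647. These values are over libraries of 6 genotypes that differ in sex and ribosomal RNA share, and are given as a description. The 24 S-phase genes themselves were all called higher with Trp53 loss in Pole4-/- MEFs (median log2 fold change 1.56) and 4 of them in Pole4+/+ MEFs (median 0.60), or 23 without Pole4+/+ Trp53-/- replicate 1, and 14 fell with Pole4 loss in Trp53+/+ MEFs. The 20 G2 and M genes gave 20, 8 (20 without that replicate) and 19. Over all genes the matching shares were 21.8% higher, 2.23% higher and 2.7% lower, and 2700 of 15953 genes were called in either direction without that replicate. With Pole4 loss only 5 of all genes were lower without Pole4-/- Trp53+/+ replicate 3 or Pole4+/+ Trp53+/+ replicate 2, and 1 with Xist as a covariate. The 14 and 19 falls therefore cannot hold in those fits. The share of cells in S phase in each culture was not measured by these libraries, and its part in the levels of the supply genes was not tested.

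**Figure D4:**
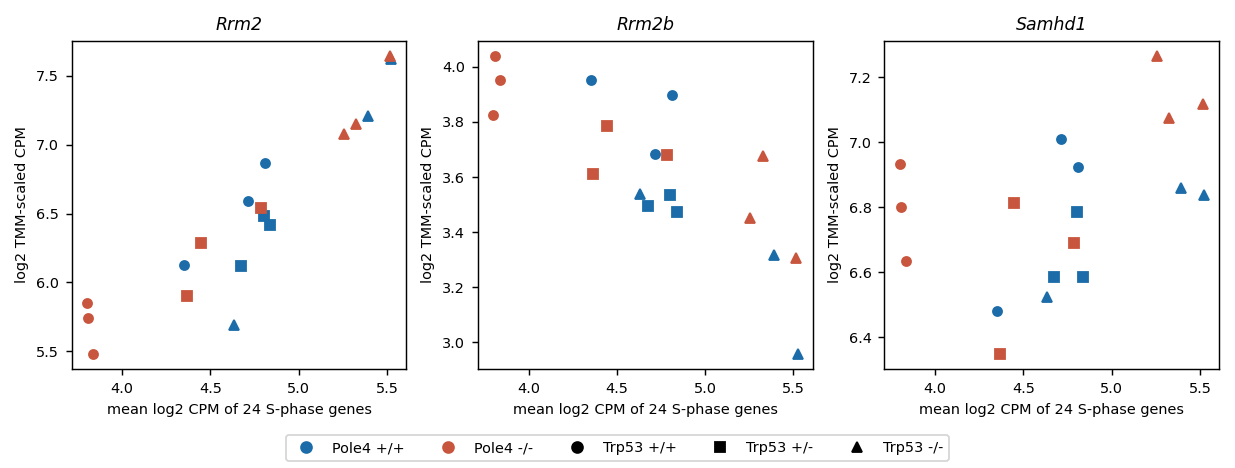
Log2 CPM of Rrm2, Rrm2b and Samhd1 (vertical axes) against the mean log2 CPM of 24 S-phase replication genes (horizontal axis) in the 18 libraries. Colour gives the Pole4 and shape the Trp53 genotype. Rrm2 climbs with the S-phase mean (r = 0.919), Rrm2b declines (r = -0.8) and Samhd1 is more scattered (r = 0.459).

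Over the same libraries the genes most like Rrm2 by Pearson correlation were Urb2 (0.988), Snrpa1 (0.986) and Pus7 (0.985). Those most like Rrm2b were Atp6v0a2 (0.921), Tmf1 (0.915) and Arfgef2 (0.912), and those most like Samhd1 were Clock (0.898), Limch1 (0.882) and Sos2 (0.877).

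Around the 9 genes, 67 further genes of nucleotide metabolism were listed in 6 groups, 65 of which were tested. With Trp53 loss in Pole4-/- MEFs 33 of them rose and 12 fell (median 0.50, all genes -0.02), beside 21.8% of all genes higher and 20.8% lower. In Pole4+/+ MEFs 2 fell (beside 2.37% of all genes) and the others did not pass the test, and with Pole4 loss in Trp53+/+ MEFs 9 fell (beside 2.7% of all genes) and the others did not pass. These 9 falls cannot all hold in some refits, where few of all genes were lower in place of 424. That number was 5 without Pole4-/- Trp53+/+ replicate 3 or Pole4+/+ Trp53+/+ replicate 2, and 1 with Xist as a covariate. Without a filter on low counts 7 of the 13 purine synthesis genes fell with Pole4 loss, in place of 1, in a fit that called 711 of all 29684 genes lower. Purine synthesis had the most calls in Pole4-/- MEFs, 10 higher and 2 lower of 13, among them Ppat, the first enzyme of the pathway (2.91-fold, from 16.6 ± 1.16 to 48.2 ± 7.31 CPM, SD, n = 3), Pfas (2.35-fold) and Paics (1.56-fold). Without Pole4+/+ Trp53-/- replicate 1, 7 of the 13 were higher and 2 lower in Pole4+/+ MEFs (beside 1369 higher and 1331 lower of all 15953 genes), where only Prps2 (1.49-fold lower) had passed with all libraries. In that fit pyrimidine synthesis had 3 genes higher and 0 lower, and the thymidylate and folate cycle 3 higher and 1 lower. The kinases had 2 higher and 2 lower, and the salvage and pool sanitation groups each had 1 higher and 1 lower.

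Of the 5 genes of pyrimidine synthesis 4 rose in Pole4-/- MEFs, to be read, as are the next counts, against 21.8% of all genes higher and 20.8% lower, with Umps, which makes UMP, at 2.57-fold, Dhodh, the mitochondrial dehydrogenase, at 1.90-fold and Cad, the enzyme of the first 3 steps, at 1.69-fold. Of the 10 genes of the thymidylate and folate cycle 7 rose and 2 fell, the falls being near the share over all genes. Shmt1, which loads folate with a carbon unit, rose 3.93-fold (adjusted p = 2.81e-05). Mthfd2l rose 1.54-fold. Of 6 genes of pool sanitation 4 rose and 1 fell (3 and 0 without a filter on low counts), with Dctpp1, a dCTP pyrophosphatase, at 3.27-fold, Itpa at 1.59-fold and Nudt5 at 1.34-fold.

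Of 16 nucleoside and nucleotide kinases 4 rose and 5 fell in Pole4-/- MEFs (median 0.01), shares near the 21.8% and 20.8% of all genes, with Dtymk, the thymidylate kinase after Tk1 and Tyms, up 1.79-fold and Uckl1 down 1.87-fold. The largest change was the fall of Ak1, an adenylate kinase, 8.22-fold in Pole4-/- MEFs (134 ± 6.88 to 16.2 ± 6.59 CPM, SD, n = 3; adjusted p = 3.26e-06) and 5.86-fold in Pole4+/+ MEFs (adjusted p = 5.08e-05). Of 17 genes of salvage, transport and breakdown, 15 of them tested, 4 rose and 2 fell, again beside 21.8% and 20.8% of all genes, with the nucleotidase Nt5c3 up 1.72-fold, the equilibrative transporter Slc29a2 up 2.37-fold and Dpyd, which degrades uracil and thymine, down 5.76-fold at a low level (1.78 ± 0.45 to 0.29 ± 0.09 CPM).

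**Figure D5:**
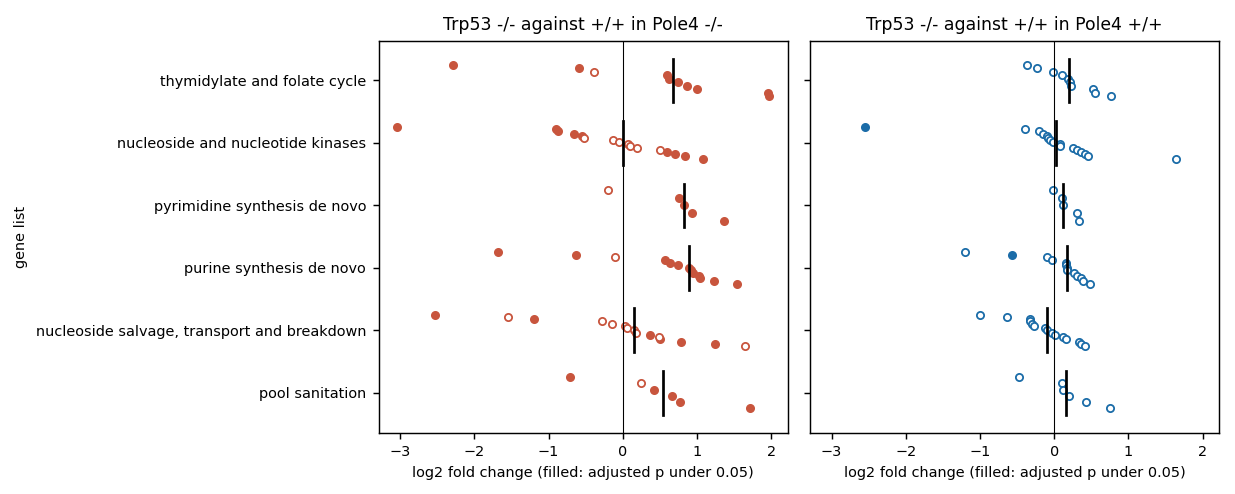
Log2 fold change (horizontal axis) of every tested gene in 6 groups of nucleotide metabolism, for Trp53-/- against Trp53+/+ in Pole4-/- (left) and Pole4+/+ MEFs (right). Filled points passed an adjusted p of 0.05, black bars are group medians, and the vertical place within a group is only the rank. In Pole4-/- MEFs the medians of purine and pyrimidine synthesis are 0.90 and 0.82, in Pole4+/+ MEFs 0.17 and 0.12. Without Pole4+/+ Trp53-/- replicate 1 the medians in Pole4+/+ MEFs were 0.37 and 0.36 (not plotted).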

How the data were processed

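RNA-seq was performed on 18 libraries of primary MEFs, 3 for each of 6 genotypes. Per the labels, full-length cDNA was made with the Ovation RNA-Seq System V2 and sequenced as paired ends, with no stated strand information. The authors trimmed the reads, aligned them with STAR 2.5.2 to GRCm38 and estimated counts per gene with RSEM 1.3.0, by the submitters' processing notes. The deposited values are these expected counts, of which 6.14% were not whole (tolerance 1e-06), and they were rounded before testing. The authors' DESeq2 comparisons were not used.

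Identifiers were matched to symbols through the GRCm38 annotation, with 51633 of 51912 matched. Genes passing edgeR's filterByExpr (15710) were TMM-scaled and tested with robust quasi-likelihood F-tests (edgeR 4.0.16, R 4.3.3) in 1 fit with a mean per genotype (12 residual degrees of freedom). A gene was called at a Benjamini-Hochberg adjusted p under 0.05 over all genes tested. There were 9 comparisons of genotypes and 1 interaction. CPM are TMM-scaled, and correlations used log2 CPM with a prior count of 2. The smallest p of the exact two-sided permutation test of 3 against 3 is 0.1. Counts per gene limit precision by counting error, and the 9 genes held from 75 to 7169 counts per library. On simulated data for Trp53-/- against Trp53+/+ in Pole4-/- MEFs over 15710 genes, 99% of genes changed by a log2 of 2 and 78% of those changed by 1 were recovered, with 7 false calls. In it 100 genes were changed by each size, as many up as down, and the others had 1 mean in all genotypes. In the real comparison 42.6% of all genes were called, so these rates may not hold there.

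Alternatives were RLE and upper-quartile scaling, library totals alone, no filter, a mean of at least 50 counts, DESeq2 1.42.0, limma 3.58.1 voom with quality weights, a fit of only the libraries compared, a replicate block, covariates for Xist (log2 CPM + 0.5) and ribosomal RNA share, and leaving out each library. No library of a genotype repeated another within counting error. In each list of nucleotide genes the 3 called genes with the lowest p in each comparison of Trp53-/- with Trp53+/+ were named, with Trp53, Pole4 and Cdkn1a as checks of genotype and the 3 genes most like Rrm2, Rrm2b and Samhd1. A result for 1 gene that this rule names is not reported here. The 9 genes and all lists were chosen with earlier results of these data known.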

Additional observations from a re-analysis of the deposited data

How the results depend on the processing

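The number of the 9 genes called kept within 1.5 times under all 11 alternatives for Trp53-/- against Trp53+/+ in Pole4-/- MEFs (7 to 9), and was 0 throughout for Trp53+/- against Trp53+/+ in Pole4+/+ MEFs and for Pole4 loss in Trp53+/- and Trp53-/- MEFs. For Trp53-/- against Trp53+/+ in Pole4+/+ MEFs the count of 2 became 0 with library totals alone, with no filter and with only the libraries compared, 1 with the ribosomal RNA covariate, 4 with a mean of at least 50 counts and with DESeq2, and 8 with voom. For Trp53+/- against Trp53+/+ in Pole4-/- MEFs the 4 became 0 with Xist and 2 with ribosomal RNA as a covariate. For Trp53-/- against Trp53+/- the 5 in Pole4-/- MEFs became 0 with library totals alone, 8 with voom and 3 with the ribosomal RNA covariate, and the 0 in Pole4+/+ MEFs became 1 with DESeq2 and 5 with voom. For Pole4 loss in Trp53+/+ MEFs the 5 became 0 with Xist and 3 with ribosomal RNA as a covariate. For the interaction the 0 became 2 with RLE, 3 with upper-quartile scaling, no filter or a mean of at least 50 counts, and 6 with DESeq2 or voom. Leaving out a library gave 0 to 7, 0 to 3, 3 to 5, 0 to 5, 0 to 5 and 0 to 7 calls in these 6 comparisons in the order given. Why these counts moved was not tested.

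Same-numbered libraries did not deviate together throughout: of 45 pairs 22 had a correlation over 0.1 (median 0.098, other pairs -0.06), and 13 of 18 libraries correlated best with their own number. The replicate block changed the count to 1 for Trp53-/- against Trp53+/+ in Pole4+/+ MEFs and to 3 for the interaction (with 548 of all genes called in place of 52), and left the other counts within 1.5 times.

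Of 1584 values of single genes under alternatives, 1343 kept direction and side of the threshold, 92 lost and 98 gained a call, and 51 changed sign, 0 of them called in either analysis. With library totals alone, log2 fold changes for Pole4 loss in Trp53-/- MEFs became -0.14 (Dck), -0.16 (Dctd), -0.32 (Dut), -0.13 (Rrm1), -0.11 (Rrm2), -0.24 (Rrm2b), -0.0044 (Samhd1), -0.30 (Tk1) and -0.25 (Tyms), where that scaling put the median of all genes at -0.44. It also turned Rrm2b for Pole4 loss in Trp53+/+ MEFs (-0.21), for Trp53+/- against Trp53+/+ in Pole4-/- MEFs (0.058) and in the interaction (-0.026), and Samhd1 for Trp53+/- in Pole4-/- (0.14) and Trp53-/- in Pole4+/+ MEFs (0.013). Voom turned Dut (-0.17), Rrm2 (-0.023) and Tk1 (-0.0048) for Pole4 loss in Trp53-/- MEFs, Samhd1 for Pole4 loss in Trp53+/- MEFs (0.031) and Tk1 for Trp53+/- in Pole4+/+ MEFs (-0.00061). Xist as a covariate turned Dctd for Trp53+/- in Pole4+/+ MEFs (0.012) and Samhd1 for Pole4 loss in Trp53+/- MEFs (0.14), which ribosomal RNA also turned (0.0043). Samhd1 for Pole4 loss in Trp53+/+ MEFs became 0.018 with a mean of at least 50 counts and 0.030 with upper-quartile scaling, which gave Rrm2b an interaction of -0.0054.

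Leaving out a library turned 26 of these values. For Pole4 loss in Trp53+/- MEFs Dctd ran from -0.045 to 0.14, Rrm2 from -0.24 to 0.077, Samhd1 from -0.12 to 0.11 and Tyms from -0.15 to 0.038. For Pole4 loss in Trp53-/- MEFs Dut ran from -0.20 to 0.26, Rrm2 from -0.11 to 0.67, Tk1 from -0.12 to 0.38 and Tyms from -0.0066 to 0.27. For Trp53+/- against Trp53+/+ in Pole4+/+ MEFs Dctd ran from -0.11 to 0.058, Rrm1 from -0.064 to 0.17, Tk1 from -0.12 to 0.12 and Tyms from -0.19 to 0.0063. Samhd1 ran from -0.18 to 0.072 for Pole4 loss in Trp53+/+ and from -0.23 to 0.026 for Trp53 loss in Pole4+/+ MEFs, Dut from -0.062 to 0.40 for Trp53-/- against Trp53+/- in Pole4+/+ MEFs, and the interaction of Rrm2b from -0.045 to 0.25.

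The mean log2 ratio per kilobase of coding sequence in place of exon was -3.57 to -1.51 for Rrm2b to Rrm2 and -0.86 to 0.38 for Samhd1 to Rrm2. The number of all genes called varied too: 3722 to 8126 about 6699 for Trp53 loss in Pole4-/- MEFs, 90 to 2946 about 723 in Pole4+/+ MEFs and 3 to 5229 about 626 for Pole4 loss in Trp53+/+ MEFs. The fewest counts in a library were those of Tk1 (75), Rrm2b (96) and Dck (98), where counting error is largest.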

Other observations

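Tk2 and Dguok encode the mitochondrial counterparts of Tk1 and Dck, and with Rrm2b they are known to supply nucleotides for mitochondrial DNA. Both were singled out after their values were seen. With Trp53 loss in Pole4-/- MEFs Tk2 fell 1.58-fold (8.26 ± 0.86 to 5.19 ± 0.89 CPM, SD, n = 3; log2 -0.66 ± 0.15, SE; adjusted p = 0.00237, edgeR) and Dguok fell 1.83-fold (10.9 ± 1.49 to 5.90 ± 0.69 CPM; log2 -0.87 ± 0.23, SE; adjusted p = 0.00704), while Tk1 and Dck rose. In Pole4+/+ MEFs the log2 fold changes were -0.09 ± 0.14 for Tk2 (adjusted p = 0.821) and 0.26 ± 0.23 for Dguok (adjusted p = 0.607), and the difference between the backgrounds did not pass the test for either gene (adjusted p = 0.098 and 0.0654).

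Of 24 TRP53 targets, 19 fell and 1 rose in Pole4-/- and 17 fell in Pole4+/+ MEFs with loss of Trp53, with medians of -1.77 and -1.33 on the log2 scale, against -0.45 and -0.54 for Rrm2b. Of the 14 tested interferon-stimulated genes, 2 rose and 2 fell in Pole4-/- and 3 rose in Pole4+/+ MEFs. Over all genes 21.8% rose and 20.8% fell in Pole4-/-, and 2.23% and 2.37% in Pole4+/+ MEFs. The library Pole4+/+ Trp53-/- replicate 1 had the highest sum of the interferon list of all 18, 180 CPM, beside a Samhd1 level of 92.1 CPM that lay below the other 2 of its genotype.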
